A study of Mus musculus with 6 samples.

Results

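Prostaglandin E2 is made, moved, degraded and sensed by the products of a small set of genes, and 10 of them were chosen by name from this pathway: *Pla2g4a*, *Ptgs1*, *Ptgs2*, *Ptges*, *Ptges2*, *Ptges3*, *Hpgd*, *Ptgr1*, *Ptger1* and *Ptger4*. Values of 9 of the 10 were used, among 19255 genes with values, and *Hpgd*, the dehydrogenase that inactivates prostaglandin E2, was not analysed here. The genes were followed in 4T1, a mouse mammary carcinoma line, by RNA-seq of 3 libraries of *Uba6*-null cells (sgUba6, genotype UBA6 knockout) and 3 libraries of control cells (sgCtrl, titled NTC, genotype WT). All were cultured tumour cells with no host tissue, grown in RPMI medium with serum, and no added agent is named for either group. The *Uba6*-null cells came from Cas9-expressing 4T1 cells that received lentiviral guide RNAs and puromycin selection. It is not stated whether they were a clone or a mixed population. The submitters' treatment note, the same for all 6 samples, names the *Uba6* guide for the control samples too, so the groups were taken from the titles and genotypes. The labels do not say whether the 3 libraries of a group came from separate cultures, so p-values measure only the spread between these libraries, which may be technical.

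In this pathway, cytosolic phospholipase A2 frees arachidonic acid from membranes, and the cyclooxygenases COX-1 and COX-2 turn it into the unstable endoperoxide PGH2, from which terminal synthases make each prostaglandin. COX-1 is usually described as the steadily expressed form and COX-2 as the form induced by cytokines, growth factors and serum. Prostaglandin E2 leaves the cell, acts on 4 G protein-coupled receptors, EP1 to EP4, and is taken back up and oxidised; in tumours it is known for damping immune responses.

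The values are FPKM, fragments scaled for exon length and for the mapped fragments of the library, so levels can be set against each other between genes. Groups were compared with limma on log2(FPKM + 0.5), and a gene was called changed where its p, adjusted by Benjamini-Hochberg over the 12190 genes that reached 0.5 FPKM in 3 or more libraries, was under 0.05. SE stands for the standard error of a log2 fold change. The FPKM of a library summed to 352535 to 355425 in sgUba6 cells and to 358916 to 362762 in sgCtrl cells, and 12140 to 12167 genes in sgUba6 cells and 11823 to 11912 in sgCtrl cells reached 0.5 FPKM. *Uba6* mRNA was at 11.7 ± 0.696 FPKM in sgUba6 cells and 16.6 ± 0.349 FPKM in sgCtrl cells (SD, n = 3 each), a log2 fold change of -0.49 (limma, adjusted p = 0.000601), and every sgUba6 library lay under every sgCtrl library. The paper judged the knockout by western blot of UBA6 protein, which mRNA levels do not show. Of 7 epithelial markers, 6 were measured, with summed levels of 2041 to 2061 FPKM in sgUba6 cells and 2077 to 2113 FPKM in sgCtrl cells. Within that sum, *Epcam* (log2 fold change 0.90) and *Cldn7* (0.63), genes of cell adhesion and tight junctions, were called higher in sgUba6 cells, and the keratin genes *Krt8* (-0.22) and *Krt14* (-0.29) lower.

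Of the 9 prostaglandin genes measured, all entered the test. *Ptger4* was called higher in sgUba6 cells, and *Ptgs1*, *Ptges3* and *Ptgr1* were called lower. *Ptger4* reached 0.5 FPKM only in the sgUba6 libraries, so it had to differ once it entered the test. It is counted below with that limit, and the count of higher genes rests on it alone. The 4 called genes make 44.4% of the 9, against 47.4% of all genes tested, so the share of changed genes in this pathway was close to that of the transcriptome. Calls were split between 1 higher gene, against a background of 24.7%, and 3 lower genes, against a background of 22.7%. The median log2 fold change was 0.01 over the 9 genes and 0.01 over all genes tested. In bulk RNA, fewer cells of a type and less RNA per cell cannot be told apart.

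**Figure D1:**
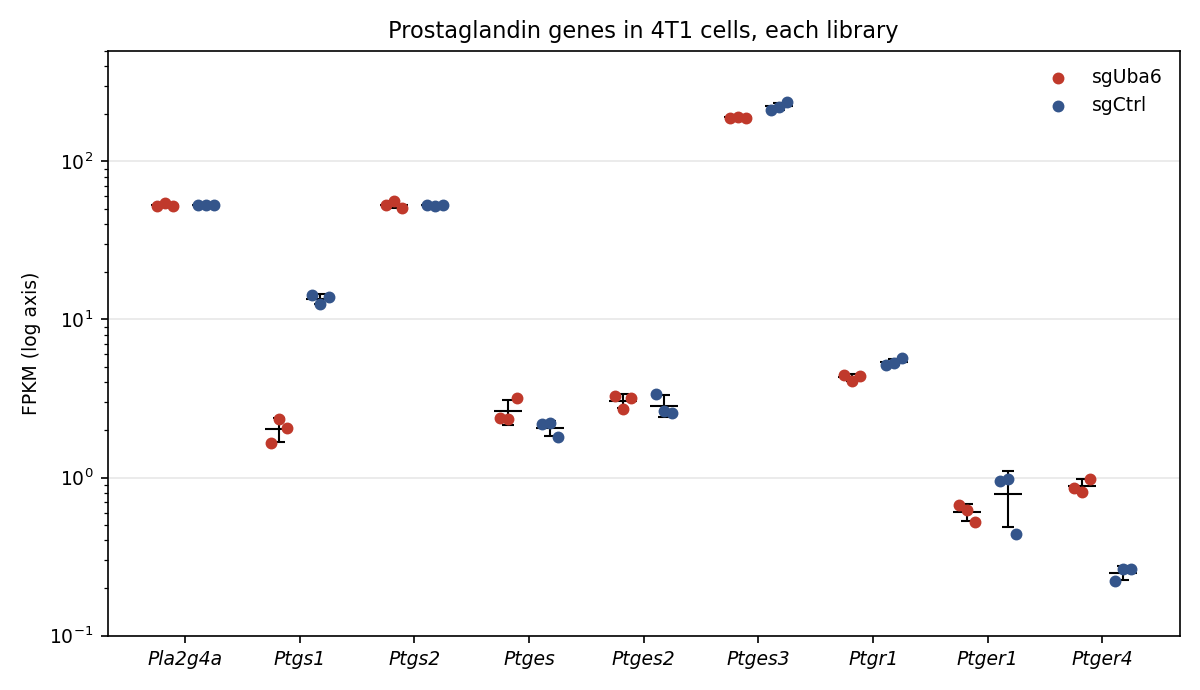
FPKM (log axis) of the 9 measured prostaglandin genes in each sgUba6 library (left of each pair) and each sgCtrl library (right of each pair), in the order of their roles, with a horizontal line at each group mean and bars of 1 SD. *Ptgs1* and *Ptger4* stand apart between the groups, with means of 2.02 and 0.885 FPKM in sgUba6 cells, against 13.6 and 0.249 FPKM in sgCtrl cells, while *Ptgs2* and *Pla2g4a* lie between 50.8 and 56.2 FPKM in every library.

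*Pla2g4a* encodes cytosolic phospholipase A2α, which supplies arachidonic acid to the pathway, and spans 149829618 to 149961290 of chromosome 1 (GRCm38, minus strand). It was at 52.1, 54.7 and 52.4 FPKM in sgUba6 cells and at 52.6, 52.7 and 52.8 FPKM in sgCtrl cells. The groups overlapped, and the log2 fold change was 0.01 with a 95% confidence interval of -0.08 to 0.10 (limma, adjusted p = 0.856).

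Both cyclooxygenases carry out the same reaction. The promoters of *Ptgs1* and *Ptgs2*, and that of the receptor gene *Ptger4*, are shown because these genes carry the largest difference, the highest cyclooxygenase level and the called receptor. Each window runs 5′ to 3′ on the gene's own strand, with the 250 bases before the start site and the first 30 bases from it, which is counted as position 1 (RefSeq, GRCm38.p6), and capitals mark motif matches on either strand.
Ptgs1 (chr2:36230176-36230455, plus strand): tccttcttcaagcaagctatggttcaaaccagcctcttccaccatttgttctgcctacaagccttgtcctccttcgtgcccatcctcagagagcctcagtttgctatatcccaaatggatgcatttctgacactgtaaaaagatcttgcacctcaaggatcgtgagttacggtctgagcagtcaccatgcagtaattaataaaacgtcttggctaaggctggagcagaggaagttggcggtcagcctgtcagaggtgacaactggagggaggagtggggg
Ptgs2 (chr1:150099781-150100060, plus strand): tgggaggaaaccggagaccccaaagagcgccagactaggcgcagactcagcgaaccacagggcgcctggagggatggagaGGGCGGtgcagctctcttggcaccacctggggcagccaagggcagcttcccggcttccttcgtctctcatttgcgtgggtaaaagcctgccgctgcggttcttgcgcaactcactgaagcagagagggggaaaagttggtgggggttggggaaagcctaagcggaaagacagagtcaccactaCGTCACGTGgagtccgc
Ptger4 (chr15:5244158-5244437, minus strand): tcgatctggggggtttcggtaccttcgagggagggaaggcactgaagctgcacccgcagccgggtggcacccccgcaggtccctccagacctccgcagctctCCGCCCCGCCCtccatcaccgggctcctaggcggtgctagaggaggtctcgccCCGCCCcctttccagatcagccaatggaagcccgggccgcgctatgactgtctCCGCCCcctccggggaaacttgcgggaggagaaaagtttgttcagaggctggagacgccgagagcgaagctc

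Both strands were searched for the TATA box TATAAA, the full cAMP response element TGACGTCA and its core TGACG, and the E box CACGTG. The GC box GGGCGG, the AP-1 site TGANTCA, the C/EBP site TTNNGNAAT and the STAT site TTCNNNGAA were searched too, as were an NF-kB site and an interferon-stimulated response element. Only exact matches to these letters were sought, so a site that departs from them by a single base is not marked. None of these motifs occurred in the *Ptgs1* window, which was 49.6% G and C. The *Ptgs2* window, 61.4% G and C, held a GC box from -170 to -165 of the start site, and an inverted cAMP response core from 14 to 18 that overlaps an E box from 17 to 22. The *Ptger4* window was 66.8% G and C and held 4 GC boxes, the first of which overlaps the next. Over 32851 windows of the same length, 34.7% held a GC box, 19.9% the TGACG core and 6.79% the E box.

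*Ptgs1*, which encodes COX-1, fell in sgUba6 cells more than any other of the 9 genes. It spans 36230426 to 36252272 of chromosome 2 (GRCm38, plus strand). Its level was 1.66, 2.35 and 2.06 FPKM in sgUba6 cells and 14.4, 12.4 and 13.9 FPKM in sgCtrl cells. The highest sgUba6 library lay far under the lowest sgCtrl library. The means were 2.02 ± 0.343 FPKM in sgUba6 cells and 13.6 ± 1.01 FPKM in sgCtrl cells (SD, n = 3 each), so that *Ptgs1* was 6.71-fold lower in sgUba6 cells. The log2 fold change was -2.49 (SE 0.11, 95% confidence interval -2.76 to -2.21, limma, adjusted p = 1.55e-05), and it ran between -2.58 and -2.38 when each library in turn was left out. Only 10 of the 12190 genes tested had a lower log2 fold change. In sgUba6 cells 14.8% of the genes tested had a lower mean than *Ptgs1*, and in sgCtrl cells 56.8% did.

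The other cyclooxygenase, *Ptgs2*, encodes COX-2 and spans 150100031 to 150108227 of chromosome 1 (plus strand), 138741 bases from *Pla2g4a*. It was at 52.8, 56.2 and 50.8 FPKM in sgUba6 cells and at 53.0, 52.4 and 52.8 FPKM in sgCtrl cells. The sgCtrl values lay inside the range of the sgUba6 values, and the log2 fold change was 0.01 with a 95% confidence interval of -0.10 to 0.12 (limma, adjusted p = 0.841). In sgUba6 cells 90.3% of the genes tested had a lower mean level than *Ptgs2*, and in sgCtrl cells 89.7% did.

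The make-up of the cyclooxygenase message differed between the cells, with no overlap of the groups. *Ptgs1* made up 3.05, 4.01 and 3.89% of the summed *Ptgs1* and *Ptgs2* FPKM in sgUba6 cells and 21.3, 19.2 and 20.8% in sgCtrl cells. The remainder, *Ptgs2*, was 96.4% ± 0.522 of the sum in sgUba6 cells and 79.6% ± 1.12 in sgCtrl cells (SD, n = 3 each). The sum itself was 55.3 ± 2.93 FPKM in sgUba6 cells and 66.3 ± 1.33 FPKM in sgCtrl cells, with no sgUba6 library reaching the lowest sgCtrl library.

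**Figure D2:**
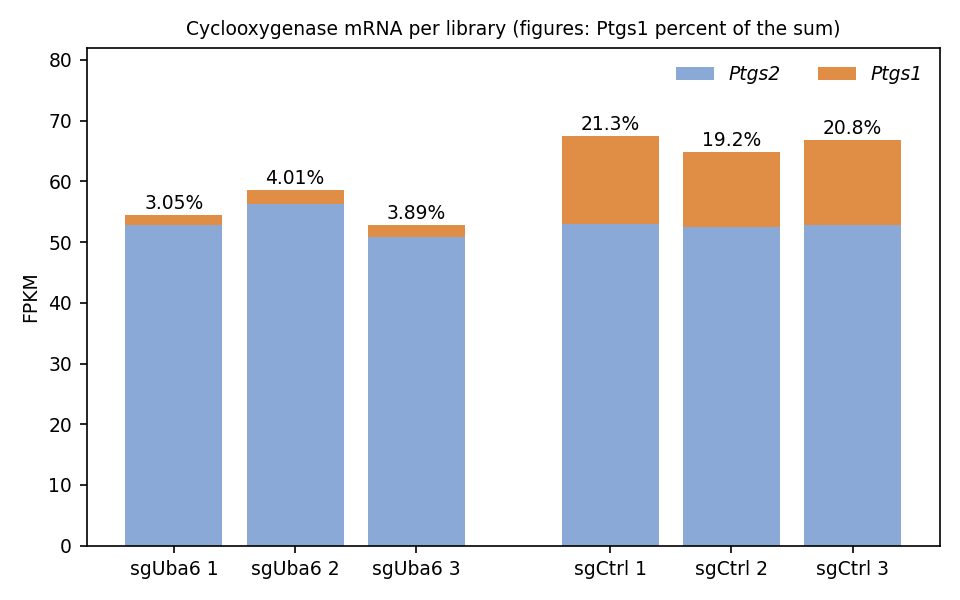
FPKM of *Ptgs2* and *Ptgs1* in each library as stacked bars from 0, with sgUba6 libraries left of sgCtrl libraries and the percentage of the sum held by *Ptgs1* above each bar. The *Ptgs2* part of the bars is 50.8 to 56.2 FPKM high throughout, and *Ptgs1* takes 3.05 to 4.01% in sgUba6 cells, against 19.2 to 21.3% in sgCtrl cells.

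Genes beside both cyclooxygenase genes were looked at after the values of the cyclooxygenases had been seen. *Ptgs2os*, a noncoding gene that starts 68 bases from *Ptgs2* and runs the other way, was at 2.99, 2.81 and 2.65 FPKM in sgUba6 cells and at 3.42, 2.94 and 3.40 FPKM in sgCtrl cells, with a log2 fold change of -0.18 (limma, adjusted p = 0.145). *Odr4*, which lies further along on the other side of *Ptgs2*, was at 5.97, 5.81 and 8.76 FPKM in sgUba6 cells and at 8.51, 8.77 and 8.69 FPKM in sgCtrl cells. Its groups overlapped through sgUba6 library 3 (log2 fold change -0.34, limma, adjusted p = 0.0975). Around *Ptgs1*, the noncoding *Gm13431* stayed at or under 0.37 FPKM and was not tested, and *Mrrf* and *Rbm18* had log2 fold changes of 0.13 and -0.07 that did not pass the test (limma, adjusted p = 0.117 and 0.301). *Ndufa8*, a subunit of respiratory complex I, was called lower at a log2 fold change of -0.36 (limma, adjusted p = 0.00184), a much smaller difference than that of *Ptgs1*.

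The 3 genes named as prostaglandin E2 synthases did not move together. *Ptges*, the microsomal synthase that is often induced with COX-2, was at 2.37, 2.35 and 3.17 FPKM in sgUba6 cells and at 2.17, 2.22 and 1.80 FPKM in sgCtrl cells. Its groups did not overlap, but the log2 fold change of 0.28 (SE 0.13, 95% confidence interval -0.03 to 0.59) did not pass the test (limma, adjusted p = 0.119). Groups were apart in this way, with no overlap, for 5 of the 9 prostaglandin genes, against 57.6% of all genes tested. *Ptger4* is among the 5, and it had to be apart because only its sgUba6 libraries reached 0.5 FPKM.

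*Ptges2*, the membrane-associated synthase, was at 3.30, 2.70 and 3.19 FPKM in sgUba6 cells and at 3.38, 2.64 and 2.55 FPKM in sgCtrl cells. The groups overlapped (log2 fold change 0.09, 95% confidence interval -0.20 to 0.38, limma, adjusted p = 0.569). *Ptges3* encodes p23, a co-chaperone of HSP90 that also has cytosolic prostaglandin E2 synthase activity, and its message was the most abundant of the 9. Its level was 189, 192 and 187 FPKM in sgUba6 cells and 212, 220.4 and 236 FPKM in sgCtrl cells. Every sgUba6 library lay under every sgCtrl library, and *Ptges3* was called lower at a log2 fold change of -0.23 (SE 0.04, limma, adjusted p = 0.00515). A processed pseudogene, *Ptges3-ps*, shares 480 bases with it at 100% identity and averaged 3.40 FPKM in sgUba6 cells and 3.35 FPKM in sgCtrl cells, so reads may have been split between them.

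*Ptgr1* encodes prostaglandin reductase 1, which acts on the oxidised prostaglandin and on leukotriene B4. It was at 4.43, 4.06 and 4.41 FPKM in sgUba6 cells and at 5.17, 5.29 and 5.67 FPKM in sgCtrl cells. The groups did not overlap, and the log2 fold change was -0.29 (SE 0.07, limma, adjusted p = 0.0139), with adjusted p-values of 0.0262 to 0.0459 when each library in turn was left out.

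The receptors were the least abundant of the 9 genes. *Ptger4* encodes EP4, a receptor that raises cAMP through Gs, and spans 5206661 to 5244187 of chromosome 15 (minus strand). It was at 0.854, 0.815 and 0.985 FPKM in sgUba6 cells and at 0.220, 0.263 and 0.265 FPKM in sgCtrl cells. Each sgUba6 library was above every sgCtrl library, and the means were 0.885 ± 0.0891 FPKM in sgUba6 cells and 0.249 ± 0.0253 FPKM in sgCtrl cells (SD, n = 3 each), a ratio of 3.55. *Ptger4* reached 0.5 FPKM only in the sgUba6 libraries, so it entered the test only through the group in which it was high and had to differ. Its log2 fold change of 0.88 (SE 0.11, limma, adjusted p = 0.000704) depends on the constant added before the log, and was 1.49 with a constant of 0.1 FPKM and 0.59 with a constant of 1 FPKM. Of its exon bases, 82 are shared with *Ttc33* on the opposite strand, which was at 10.0, 11.0 and 9.30 FPKM in sgUba6 cells and at 8.74, 10.2 and 14.0 FPKM in sgCtrl cells, and 1015 with the pseudogene *Gm15937*, which stayed at or under 0.127 FPKM.

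*Ptger1*, on chromosome 8, encodes EP1, which signals through calcium. It was at 0.666, 0.622 and 0.524 FPKM in sgUba6 cells and at 0.953, 0.982 and 0.438 FPKM in sgCtrl cells. One sgCtrl library lay under all others, the groups overlapped, and the log2 fold change of -0.20 (SE 0.19) did not pass the test (limma, adjusted p = 0.442). Without sgCtrl library 3 it was -0.41 with a limma adjusted p of 0.0388. The sources used here do not say whether reads were counted by strand, and at this level the *Ptger1* value is uncertain.

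**Figure D3:**
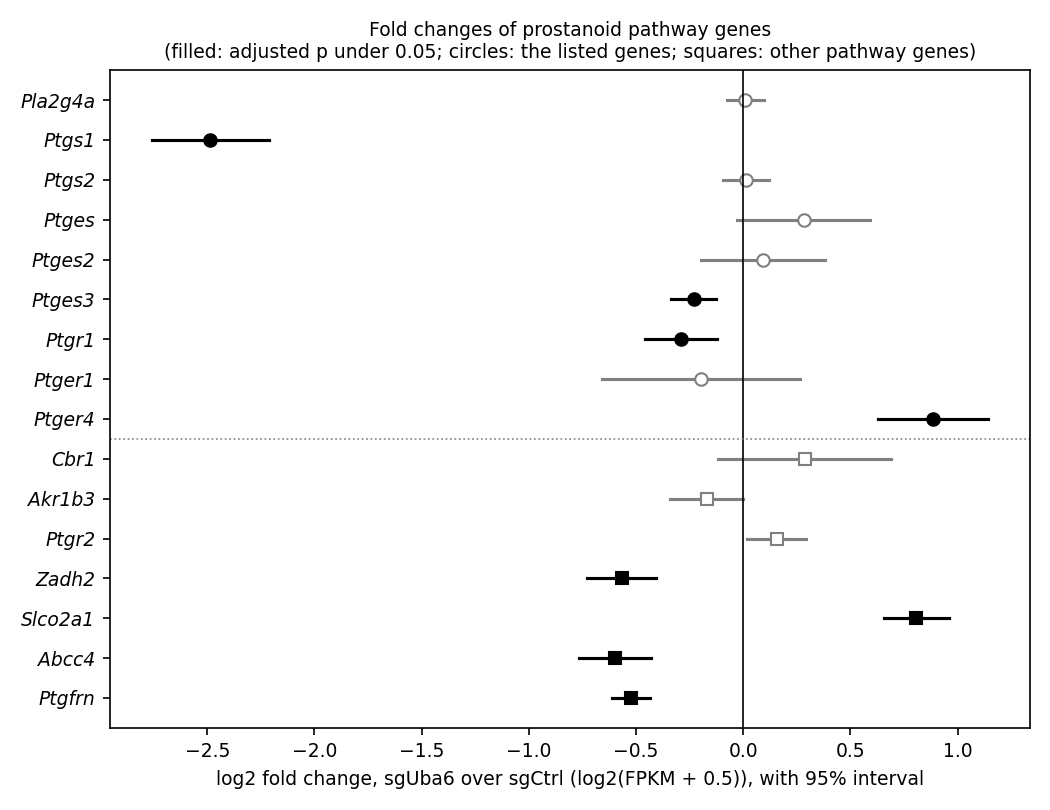
Log2 fold change of sgUba6 over sgCtrl with its 95% confidence interval for the 9 prostaglandin genes and for the other measured genes of the pathway that entered the test; circles are the listed genes, squares the others, and filled points have an adjusted p under 0.05. *Ptgs1* lies at -2.49, far below the other genes, and *Ptger4* (0.88) and *Slco2a1* (0.81) are the highest.

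**Figure D4:**
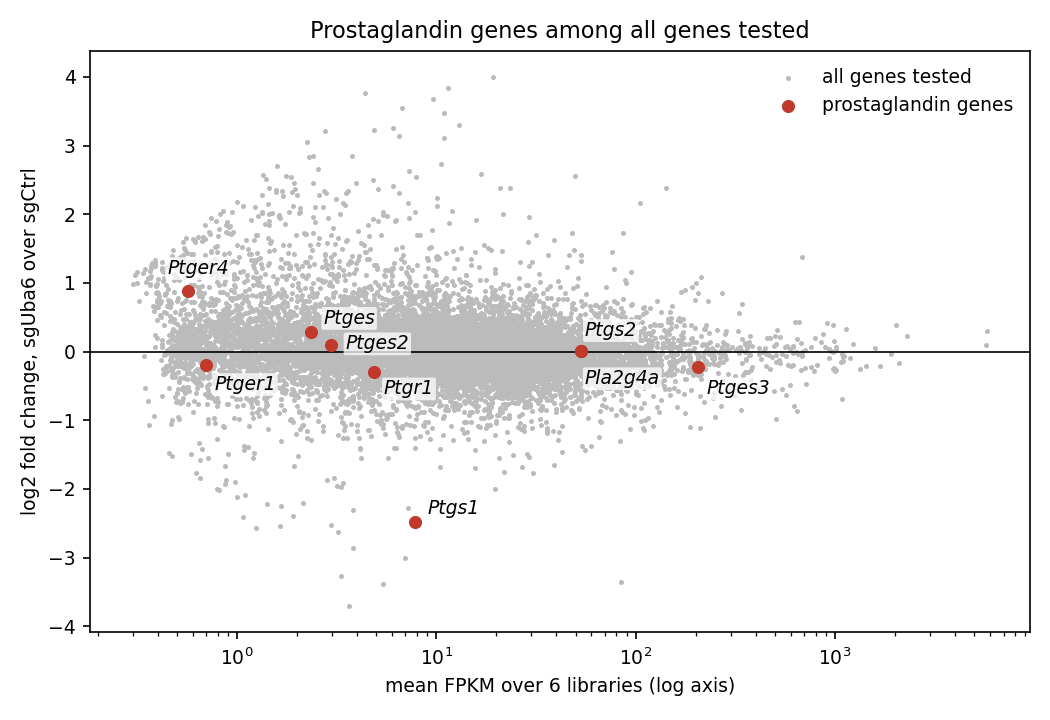
Log2 fold change of sgUba6 over sgCtrl against the mean FPKM of the 6 libraries (log axis) for all 12190 genes tested, with the 9 prostaglandin genes in red; the points of *Ptgs2* and *Pla2g4a* coincide. *Ptgs1* is the 11th lowest of all genes, and the other members lie within the cloud.

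Of 22 other genes of prostanoid synthesis, breakdown, transport and reception listed for comparison, 11 had values used here and 7 entered the test, with 1 called higher and 3 called lower. The 4 called make 57.1% of the 7, against 47.4% of all genes tested, with backgrounds of 24.7% called higher and 22.7% called lower. The transporters went opposite ways. *Slco2a1*, which encodes the prostaglandin uptake transporter PGT, was called higher at 38.7, 37.8 and 33.9 FPKM in sgUba6 cells, against 21.5, 21.1 and 19.8 FPKM in sgCtrl cells (log2 fold change 0.81, limma, adjusted p = 0.000109). *Abcc4*, which encodes the exporter MRP4, was called lower at 4.95, 5.44 and 4.85 FPKM in sgUba6 cells, against 8.37, 7.80 and 7.66 FPKM in sgCtrl cells (log2 fold change -0.60, limma, adjusted p = 0.000597). The ratio of *Slco2a1* to *Abcc4* FPKM was 7.82, 6.95 and 6.98 in sgUba6 cells and 2.57, 2.71 and 2.58 in sgCtrl cells. This ratio had to keep the groups apart, because each gene already did so, in opposite directions.

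Among the further reductases, *Zadh2* (prostaglandin reductase 3) was called lower at 11.4, 12.3 and 13.2 FPKM in sgUba6 cells, against 17.5, 18.5 and 19.2 FPKM in sgCtrl cells (log2 fold change -0.57, limma, adjusted p = 0.000629). *Ptgr2*, its relative, averaged 11.6 FPKM in sgUba6 cells and 10.4 FPKM in sgCtrl cells (log2 fold change 0.16), with a limma adjusted p of 0.0661 that became 0.0444 without sgUba6 library 1. *Ptgfrn*, a tetraspanin partner named for its effect on the prostaglandin F2α receptor and not itself a prostanoid receptor, was called lower at 69.6, 69.5 and 69.1 FPKM in sgUba6 cells, against 102, 102 and 96.0 FPKM in sgCtrl cells (log2 fold change -0.52, limma, adjusted p = 7.49e-05).

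Of the synthases of other prostanoids, 2 were tested, and 0 were called by limma, nor at an unadjusted p under 0.05. *Cbr1*, a carbonyl reductase that can turn prostaglandin E2 into F2α, averaged 6.14 FPKM in sgUba6 cells and 4.89 FPKM in sgCtrl cells (log2 fold change 0.29, limma, adjusted p = 0.209). *Akr1b3*, an aldose reductase with prostaglandin F synthase activity, averaged 48.9 FPKM in sgUba6 cells and 54.99 FPKM in sgCtrl cells (log2 fold change -0.17), with a limma adjusted p of 0.0928 that became 0.0183 without sgUba6 library 1. *Ptgds*, *Ptgis* and *Tbxas1*, the synthases of prostaglandin D2, prostacyclin and thromboxane, and the receptor gene *Ptgdr2* stayed at or under 0.0816 FPKM in every library and were not tested.

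Lists of genes around the pathway are described by their counts and medians, set beside the 24.7% of all genes called higher, the 22.7% called lower and the median of 0.01. Of 5 other phospholipases A2 tested, 3 were called higher and 1 lower, and their median log2 fold change was 0.18. The largest difference was that of *Pla2g7*, the platelet-activating factor acetylhydrolase, at 6.66, 7.36 and 6.33 FPKM in sgUba6 cells and 2.94, 3.11 and 3.23 FPKM in sgCtrl cells (log2 fold change 1.02, limma, adjusted p = 0.000102). *Pla2g15*, a lysosomal phospholipase, was called higher (log2 fold change 0.34) and *Pla2g12a*, a secreted one, lower (-0.35, a call lost without sgCtrl library 1 or 2, which left 0 lower, at limma, adjusted p = 0.0555 and 0.0550). The call of *Pla2g6* (0.18, limma, adjusted p = 0.0485) was lost under 9 of 14 alternatives.

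All 3 regulators of phospholipase A2 that were tested were called. *S100a10*, whose product binds the phospholipase, was called lower at 412, 385 and 388 FPKM in sgUba6 cells and 565, 602 and 599.95 FPKM in sgCtrl cells (log2 fold change -0.58, limma, adjusted p = 8.11e-05). *Anxa1*, annexin A1, was called higher at a log2 fold change of 0.20, and *Plaa*, the phospholipase A2-activating protein, at 0.15. The *Plaa* call was lost without sgUba6 library 2, sgUba6 library 3 or sgCtrl library 2, and in limma without the trend, each of which left 1 higher.

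Arachidonate that is not oxidised is returned to membranes by acyl-CoA synthetases and acyltransferases. Of 10 such genes tested, 3 were called higher and 4 lower, with a median of -0.02. *Acsl4*, the synthetase that prefers arachidonate, was called higher at 48.6, 49.8 and 50.3 FPKM in sgUba6 cells and 34.5, 33.2 and 34.8 FPKM in sgCtrl cells (log2 fold change 0.53, limma, adjusted p = 8.04e-05), while *Acsl3* was called lower (-0.59). The acyltransferases also divided, with *Lpcat2* called higher (0.52) and *Lpcat4* lower (-0.56).

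Of 6 lipases that make or break endocannabinoids, another source of arachidonate, 1 was called higher and 1 lower. *Faah*, the anandamide hydrolase, was called higher (log2 fold change 0.79, limma, adjusted p = 0.0012) and *Dagla*, a diacylglycerol lipase, lower (-0.24), and 3 were called higher without sgUba6 library 2. Of the lipoxygenase and leukotriene genes, 2 of 14 listed were tested, and 0 were called by limma, nor at an unadjusted p under 0.05, with 1 called higher without sgUba6 library 2 and 1 in limma without the trend.

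The list of cAMP-responsive genes was included because EP4 raises cAMP, although these genes respond to other inputs too. Of 9 tested, 8 were called higher and 0 lower by limma (0 lower also at an unadjusted p under 0.05), and their median log2 fold change was 0.46. With quantile normalization 6 were called higher. Without sgUba6 library 1, sgUba6 library 3 or sgCtrl library 2, 7 were called higher. *Sik1*, a salt-inducible kinase, was at 38.3, 36.5 and 37.9 FPKM in sgUba6 cells and at 15.6, 15.2 and 14.0 FPKM in sgCtrl cells (log2 fold change 1.30, limma, adjusted p = 8.34e-06). *Pde4d*, a cAMP phosphodiesterase, was at 4.73, 3.59 and 4.39 FPKM in sgUba6 cells and at 1.56, 1.18 and 1.08 FPKM in sgCtrl cells (log2 fold change 1.42, limma, adjusted p = 0.000278). *Pde4b*, a related phosphodiesterase, and *Areg*, a ligand of the EGF receptor, were called higher at 0.64 and 0.58. Whether these differences have any part in, or result from, that of *Ptger4* was not tested.

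The *Ptgs2* message carries AU-rich elements, at which proteins set its stability. Of 11 genes for such proteins, 3 were called higher and 3 lower, with a median of -0.04. *Zfp36*, which encodes the destabilising protein tristetraprolin, was called higher at 5.45, 5.62 and 5.73 FPKM in sgUba6 cells and 3.57, 3.61 and 4.00 FPKM in sgCtrl cells (log2 fold change 0.53, limma, adjusted p = 0.00101), as were its relatives *Zfp36l1* (0.50) and *Zfp36l2* (0.41). *Tial1* was called lower (-0.43). Without sgCtrl library 3, 5 were called higher, and without sgUba6 library 1 or 2, 1 was called lower.

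Because p23 works with HSP90, the chaperone and its partners were counted too. Of 10 tested, 3 were called higher and 5 lower, with a median of -0.05. *Ppid*, a cyclophilin co-chaperone, was called lower at 51.9, 48.4 and 49.6 FPKM in sgUba6 cells and 86.1, 82.8 and 89.5 FPKM in sgCtrl cells (log2 fold change -0.78, limma, adjusted p = 3.06e-05). *Fkbp4* (-0.31) and *Ahsa1* (-0.25), an activator of the HSP90 ATPase, were called lower like *Ptges3*, and *Fkbp5* (0.26) was called higher. With quantile normalization 3 were called lower.

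**Figure D5:**
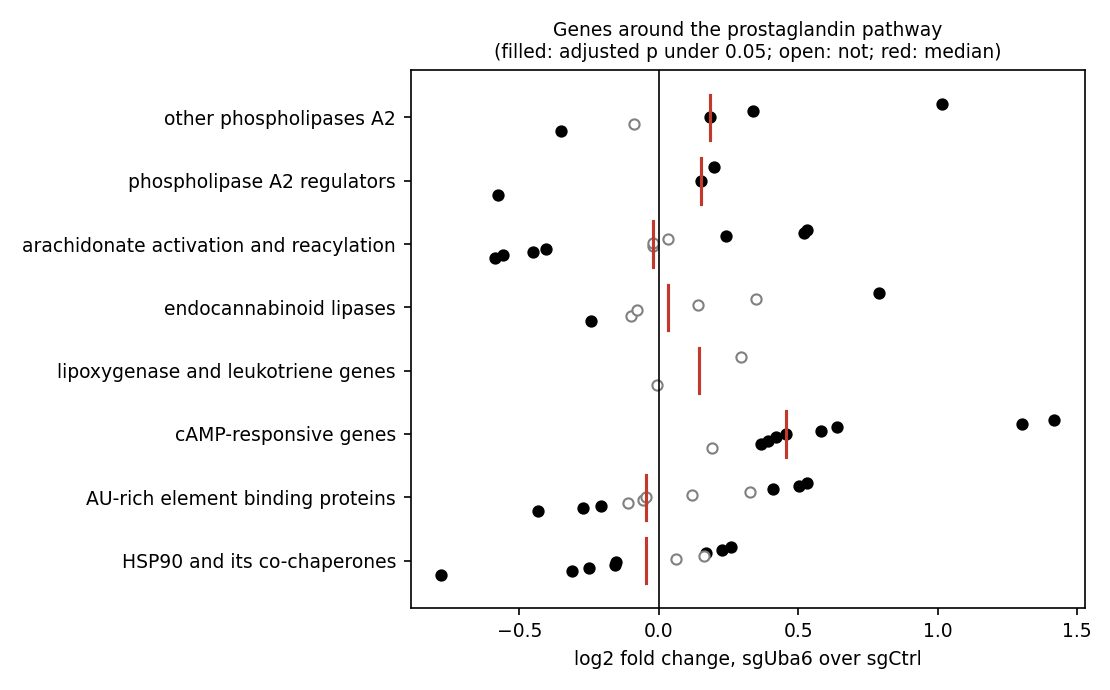
Log2 fold change of sgUba6 over sgCtrl for each tested gene of the lists around the prostaglandin pathway; filled points have an adjusted p under 0.05, open points do not, and the red bar is the median of the list. The cAMP-responsive genes have a median of 0.46 with all 9 above 0, and the medians of the AU-rich element binding proteins and of HSP90 and its co-chaperones are -0.04 and -0.05.

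Markers of other cell types were measured because macrophages and fibroblasts also express genes of this pathway. Of 6 macrophage markers, 4 had values used here, summing to 17.1 to 18.5 FPKM in sgUba6 cells and 7.73 to 8.69 FPKM in sgCtrl cells. *Cd68* was called higher, as was *Csf1r*, which reached 0.5 FPKM only in the sgUba6 libraries and so, like *Ptger4*, had to differ once it entered the test. *Ptprc*, which defines leukocytes, and *Lyz2* stayed at or under 0.0195 and 0.0427 FPKM. Of 5 fibroblast markers, 3 had values, summing to 5.36 to 6.66 FPKM in sgUba6 cells and 2.82 to 3.07 FPKM in sgCtrl cells, with *Pdgfra* called higher and *Dcn* at or under 0.0317 FPKM. *Col1a1* was called higher too, but it also reached 0.5 FPKM only in the sgUba6 libraries and had to differ. The endothelial marker *Pecam1*, 1 of 4 listed, stayed at or under 0.214 FPKM, and the mast cell markers were not analysed here. The samples were cultured tumour cells with no host tissue, and whether the levels of these markers bear on the prostaglandin values was not tested.

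The genes whose levels followed those of the 3 prostaglandin genes with the largest changes most closely were sought among 10532 protein-coding genes by Pearson's r over the 6 libraries, as a description. These points fall into both groups, so any gene that differs between the groups correlates. For *Ptgs1* they were *Erlin1*, *Tjp1* and *Incenp*, each at 0.999, among 231 genes at 0.99 or more. For *Ptger4* they were *Lima1* at 1.00 and *Tnfrsf11a* and *Elmo3* at 0.999, among 193 genes, and *Tnfrsf11a*, which encodes the receptor RANK, averaged 1.81 FPKM in sgUba6 cells and 0.303 FPKM in sgCtrl cells. For *Ptgr1* they included *Pcid2* at 0.999 and *Cmtm4* at 0.995, among 18 genes.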

How the data were processed

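The authors deposited FPKM per gene and library, with their own fold change, p-value and q-value columns, which were not used. Their methods give a directional NEB kit, Cutadapt, HISAT2 with GRCm38, StringTie and, for FPKM, Cuffdiff. The submitters' notes instead list a TruSeq kit, mm10, HISAT2, RSEM, edgeR, Trimmomatic, FastQC and CASAVA 1.8. Nothing read here says which route made the deposited values or whether it used strand. Depth in reads is unknown; relative depth, estimated from the most frequent low values, was 1.00 to 1.07 in sgUba6 cells and 0.901 to 1.09 in sgCtrl cells.

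A gene entered the test with 0.5 FPKM or more in 3 or more of the 6 libraries, which 12190 did. Groups were compared on log2(FPKM + 0.5) by limma 3.58.1 (R 4.3.3; lmFit, then eBayes with trend), and p-values were adjusted by Benjamini-Hochberg at a threshold of 0.05. The added constant compresses the change of low genes. An exact permutation test of 3 libraries against 3, two-sided, can give no p under 0.1. The alternatives used constants of 0.1 or 1 FPKM, no low-value filter, a 1 FPKM filter, scaling by median of ratios, quantile normalization, eBayes without trend, a block for the replicate number, and 5 libraries in place of 6. In a simulation of sgUba6 against sgCtrl over 12190 genes, 50 genes were changed at each fold: 44% were recovered at 1.25-fold, 74% at 1.5-fold, 92% at 2-fold, 98% at 4-fold, and 3 other genes were called. Far fewer genes were changed there than the 47.4% called in the data. The adjustment is stricter when fewer genes change, so these recovery rates do not carry over to the data.

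The members and lists were chosen with earlier results of these data known. The text names all 10 members, *Uba6*, every gene with values in the lists of other prostanoid synthases, breakdown and transport, and receptors, up to 4 called genes with the largest change in each further list, and 3 genes of like pattern for each of 3 members. Of these, 1 gene of like pattern is not reported here. Neighbours, cell type markers and genes that share sequence or exons were named besides, after their values were seen. All 19255 gene identifiers matched GENCODE M21 (GRCm38), and 9 of the 10 genes had a RefSeq promoter (GRCm38.p6). Shared sequence was sought with blastn 2.17.0. Plots were made in Python 3.11.15 with matplotlib 3.10.9.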

Additional observations from a re-analysis of the deposited data

How the results depend on the processing

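Calls were followed for *Uba6*, the members and the genes named from the lists. Neighbours, cell type markers and genes of like pattern were not followed. Of the 34 genes followed that were called, 31 kept their call and direction under every one of the 14 alternatives that tested them. *Ptgs1*, *Ptges3*, *Ptgr1* and *Ptger4* were among them, and the exceptions were *Pla2g6*, *Pla2g12a* and *Plaa*. *Ptger4* had to differ under every alternative that kept the 0.5 FPKM filter. With a filter of 1 FPKM neither *Ptger4* nor *Ptger1* was tested, and 0 of the prostaglandin genes were called higher by limma (and 0 had an unadjusted p below 0.05 in that direction), since fewer genes entered. Leaving out each library gave 4 to 5 called prostaglandin genes, with 1 higher and 3 to 4 lower, and 4856 to 5165 called genes in all, with 2526 to 2702 higher and 2330 to 2514 lower. Fold changes near 0 that had not been called changed sign: *Pla2g4a* to -0.012 and *Ptgs2* to -0.0089 with median-of-ratios scaling, and *Ptges2* to -0.041 with quantile normalization. Without sgUba6 library 2, *Pla2g4a* was at -0.013 and *Ptgs2* at -0.026, the lowest values when a library was left out, against highest values of 0.023 and 0.046; the cause was not tested. No scaling moved the median log2 fold change of all genes by more than 0.1. Of all calls, 52.1% were higher in the main fit, 48.6% with median-of-ratios scaling and 49.15% with quantile normalization. With either scaling, lower calls thus outnumbered higher ones. The largest share of higher calls in any setting was 54.2%, with no low-value filter.

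Same-numbered libraries did not deviate together (correlations of 0.0156, -0.0567 and -0.0223). This does not show whether the numbers pair samples, and the main fit treated the libraries as unpaired. With the replicate number as a block, 2718 genes were called higher and 2552 lower. In that fit 4 prostaglandin genes were called, while *Plaa* and *Pla2g6* were not. At under 1 FPKM, *Ptger4* and *Ptger1* rest on few fragments, and the number behind them is unknown.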
